A study of Arabidopsis thaliana with 16 samples.

Results

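Pollen of Arabidopsis thaliana carries a small set of pectin-degrading enzymes that act on the wall of the growing tube. The transcripts of 10 such genes are described here, out of 33323 genes counted in the series. They are given by locus: the 6 pollen polygalacturonase genes AT3G07820, AT3G07830, AT3G07840, AT3G07850, AT5G48140 and AT1G02790 (PGA4), and the 4 pollen pectate lyase genes AT1G14420 (AT59), AT2G02720, AT3G01270 and AT5G15110. All libraries came from semi-in vivo pollen tubes, which have grown through a cut pistil and out of it, of the ecotype Col-0. Plants were wild type or carried paps1-1, a missense allele with partial loss of function of PAPS1, the nuclear poly(A) polymerase 1, so the level of the PAPS1 transcript does not check the labels. The labels give no growth temperature or plant age for either genotype. RNA of each of 8 tube samples was split into 1 library primed with random hexamers and 1 primed with oligo(dT), which gave 4 groups of 4 libraries: wild type and paps1-1, each with both primings. The series title ties the comparison of the primings to poly(A)-tail length. Whether the 4 tube samples of a genotype were independent collections is not in the labels, so the p-values cover the variation among these samples alone, and it may be technical.

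Depth differed widely. Counts assigned to genes ranged from 70006 to 5294720 per library, detected genes from 2266 to 17736, and the level below which a count of 0 cannot be told from expression (3 counts) from 0.567 to 42.9 CPM (counts per 1000000 gene counts of the library). The wild-type oligo(dT) library of replicate 3 stood apart, with the fewest gene counts, the fewest detected genes and the highest such level. Some results that rest on it are given with and without it, while group means, SDs and ranges include it. The random-hexamer library of the same RNA detected 6043 genes from 628358 gene counts. That of paps1-1 replicate 3 detected 16839 genes from 711099. The RNA of paps1-1 replicates 2 and 3 stood apart as well, with low shares of pollen-tube transcripts. Floors of this kind cover counting error only, because the reads carried no molecular identifiers.

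Pectin is laid down at the tube tip as methylesterified homogalacturonan, a chain of galacturonic acid. Pectin methylesterases remove the methyl groups, after which the chain can be bound by calcium and stiffen, or be cut. Polygalacturonases cut the demethylesterified chain by hydrolysis, and pectate lyases cut it by a calcium-dependent elimination reaction; members of both families are abundant late pollen transcripts in many plants, and some are known pollen allergens. AT3G07820, AT3G07830, AT3G07840 and AT3G07850 are neighbours on the minus strand of chromosome 3, and the other members lie apart from them on chromosomes 1, 2, 3 and 5.

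How far the members can be told apart by sequencing reads depends on their likeness. Among the polygalacturonases the coding sequences of AT3G07820, AT3G07830 and AT3G07840 were 82.1% to 83.8% identical, and AT5G48140, on chromosome 5, was 79.7% identical to AT3G07820. AT3G07850 reached 54.8% and PGA4 53.2% against AT3G07820. The pectate lyases form 2 pairs, AT1G14420 with AT2G02720 at 74.7% and AT3G01270 with AT5G15110 at 77.6%, while identity across the pairs was 59.2% to 60.2%. The stretches of 60 coding bases below are those most alike within each family, without gaps and within 1 exon. They are therefore more alike than the coding sequences as a whole. They come from the RefSeq genome of Arabidopsis, build TAIR10.1, are written 5′ to 3′ in the sense of the gene, and carry in capitals the bases that differ from AT3G07820 or, for the pectate lyases, from AT3G01270.
AT3G07820, chr3:2496744-2496803, minus strand: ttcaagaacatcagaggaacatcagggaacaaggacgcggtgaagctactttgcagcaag
AT3G07830, chr3:2499616-2499675, minus strand: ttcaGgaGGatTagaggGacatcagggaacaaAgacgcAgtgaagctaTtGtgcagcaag
AT3G07840, chr3:2502067-2502126, minus strand: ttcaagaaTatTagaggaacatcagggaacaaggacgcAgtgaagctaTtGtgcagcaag
AT3G07850, chr3:2505969-2506028, minus strand: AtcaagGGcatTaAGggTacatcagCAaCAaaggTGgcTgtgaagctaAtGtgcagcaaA
AT5G48140, chr5:19519066-19519125, minus strand: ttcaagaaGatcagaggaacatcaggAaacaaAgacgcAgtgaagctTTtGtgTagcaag
AT1G02790, chr1:610846-610905, minus strand: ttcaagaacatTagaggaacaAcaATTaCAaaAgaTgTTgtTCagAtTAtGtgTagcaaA
The stretches of AT3G07840, AT5G48140 and AT3G07830 differed from that of AT3G07820 at 5, 8 and 9 of the 60 positions, and those of AT3G07850 and PGA4 at 17 and 19. The pectate lyases are shown at a stretch with the same kind of contrast between pairs.
AT3G01270, chr3:83267-83326, minus strand: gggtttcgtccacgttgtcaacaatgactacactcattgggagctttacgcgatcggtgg
AT5G15110, chr5:4897246-4897305, plus strand: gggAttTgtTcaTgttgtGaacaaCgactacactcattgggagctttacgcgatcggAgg
AT2G02720, chr2:764381-764440, plus strand: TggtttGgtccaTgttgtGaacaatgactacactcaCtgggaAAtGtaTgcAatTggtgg
AT1G14420, chr1:4932154-4932213, minus strand: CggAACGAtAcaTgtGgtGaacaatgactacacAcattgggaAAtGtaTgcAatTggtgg
AT5G15110 differed from AT3G01270 at 7 positions, AT2G02720 at 11 and AT1G14420 at 17. Over whole transcripts, AT3G07850 was the member with the most sequence found elsewhere: 24.9% of its 50-base words and 9.71% of its 75-base words also occur in AT3G14040, a polygalacturonase-like gene that is no member. AT3G07820 and AT3G07840 share 27 words of 50 bases, 1.85% and 2.17% of their words. The other members share none. Reads that mapped to more than 1 place were tallied in a row of their own, apart from the genes. Any such reads shared with AT3G14040 are thus missing from AT3G07850, the member most exposed to this loss.

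The 250 bases upstream of the annotated start are shown for the members whose levels differed most from each other between genotypes, AT3G01270 and AT5G48140, and for AT3G07820, the most abundant polygalacturonase. Capitals mark AGAAA and GTGA on either strand (TTTCT and TCAC on the strand shown), short motifs that were described in late pollen promoters of tomato and tobacco. Overlapping matches of both motifs are run together.
AT3G07820, chr3:2498096-2498345, minus strand: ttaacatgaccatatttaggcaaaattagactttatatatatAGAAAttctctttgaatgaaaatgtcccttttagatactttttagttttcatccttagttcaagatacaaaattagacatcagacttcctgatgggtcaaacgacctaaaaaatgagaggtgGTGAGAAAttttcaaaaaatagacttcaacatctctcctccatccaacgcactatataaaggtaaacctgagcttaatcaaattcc
AT3G01270, chr3:84902-85151, minus strand: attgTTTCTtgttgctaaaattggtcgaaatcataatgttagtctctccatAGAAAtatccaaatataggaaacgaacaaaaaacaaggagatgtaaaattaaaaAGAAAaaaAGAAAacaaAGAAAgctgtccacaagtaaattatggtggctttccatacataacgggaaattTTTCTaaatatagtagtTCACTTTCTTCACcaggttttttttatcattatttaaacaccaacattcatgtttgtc
AT5G48140, chr5:19520529-19520778, minus strand: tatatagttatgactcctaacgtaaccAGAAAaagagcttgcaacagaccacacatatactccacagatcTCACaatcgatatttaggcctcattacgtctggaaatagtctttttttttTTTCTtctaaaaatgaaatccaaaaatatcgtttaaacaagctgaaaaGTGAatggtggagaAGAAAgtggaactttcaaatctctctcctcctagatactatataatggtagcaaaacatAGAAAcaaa
AGAAA occurred 2 times upstream of AT3G07820, 7 times upstream of AT3G01270 and 4 times upstream of AT5G48140, and GTGA 1, 2 and 2 times. Both words are common. Of 27443 promoters of the same length, 82.5% hold AGAAA and 77.55% hold GTGA on either strand, with a median of 2 and 1 matches. All 10 members held AGAAA, between 1 match (AT3G07830, AT3G07850, PGA4 and AT1G14420) and 7, and 6 of 10 held GTGA. A match is a string of letters and not a shown binding site.

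AT3G07820, the highest of the polygalacturonases, stood at 10021, 6820.0, 4311 and 6553 CPM in the random-hexamer libraries of wild-type replicates 1 to 4, and at 11742, 4404, 3670.4 and 6062 CPM in those of paps1-1. The genotypes overlapped, with paps1-1 replicate 1 above and paps1-1 replicate 3 below every wild-type library. In the oligo(dT) libraries it stood at 5107, 5238, 543 and 4157 CPM in wild type and 7672, 3316, 2079 and 4386 CPM in paps1-1, and only the shallow wild-type replicate 3 fell below 1000 CPM.

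PGA4, a pollen exopolygalacturonase, stood at 4819, 2088, 3223 and 3552 CPM in wild type and 4597, 1927, 1654 and 3578 CPM in paps1-1 with random hexamers. Its oligo(dT) values were 2263, 1729.6, 143 and 1933 CPM and at 3252, 1404, 868 and 2944 CPM. Its order across libraries followed that of AT3G07820 in that paps1-1 replicates 1 and 4 were above replicates 2 and 3 in both primings.

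AT5G48140 was the polygalacturonase with the most unequal values between genotypes. With random hexamers it stood at 875, 661, 603 and 891 CPM in wild type and 2375, 715, 973 and 1974 CPM in paps1-1. Of the paps1-1 libraries 3 lay above every wild-type library, and replicate 2 lay between them. With oligo(dT) it stood at 630.3, 1199, 0 and 625 CPM in wild type and at 2329, 922, 568 and 1662 CPM in paps1-1, so the groups overlapped there too.

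AT3G07850 ranged from 355 to 555 CPM in wild type and from 285 to 635 CPM in paps1-1 with random hexamers. Oligo(dT) libraries held it at 24.8, 80.0, 0 and 139 CPM in wild type and at 106, 84.3, 0 and 63.3 CPM in paps1-1. Every oligo(dT) library was thus below every random-hexamer library. Its near copy AT3G14040 was lower with random hexamers, at 4.77 to 145 CPM. With oligo(dT) the pair overlapped, since the paps1-1 libraries held AT3G14040 at 35.2, 18.3, 131 and 158 CPM, and the wild-type libraries at 34.6, 12.0, 0 and 87.9 CPM.

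The label of a pollen gene was not borne out in these tubes for the remaining pair of the tandem group. AT3G07830 had 61 counts over 3 paps1-1 and 36 counts over 2 wild-type random-hexamer libraries, at most 8.33 CPM in any of them, and no count in the 8 oligo(dT) libraries. AT3G07840 had 10 counts in 1 paps1-1 and 1 count in 1 wild-type random-hexamer library, none in paps1-1 with oligo(dT), and 7 counts in wild-type oligo(dT) replicate 3, which at 70006 gene counts amount to 99.99 CPM. A count of 0 over the 4 pooled libraries allows, with oligo(dT), up to 0.346 CPM for paps1-1 and up to 0.612 CPM for wild type. Neither gene has the level of its neighbours AT3G07820 and AT3G07850, and AT3G07840 did not pass the filter on low counts in any test.

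AT3G01270 was the highest pectate lyase. With random hexamers it stood at 18410.1, 13787, 14145 and 16452 CPM in wild type and at 12833, 5328, 4462 and 11297 CPM in paps1-1. Its oligo(dT) values were 10868, 7584, 7085 and 8477 CPM in wild type and 6357, 2943, 2219.8 and 5222 CPM in paps1-1. All 4 paps1-1 libraries lay below all 4 wild-type libraries in each priming; both primings come from the same 8 RNA samples, so this is one observation made by a pair of methods.

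AT2G02720 stood at 2167, 1541, 1351 and 1858 CPM in wild type and 2951, 1064, 959 and 2579 CPM in paps1-1 with random hexamers. Primed with oligo(dT) it stood at 2614, 2256, 3885 and 1672 CPM and at 3096, 1180.4, 1065 and 1152 CPM. It is the member whose oligo(dT) level was as high as its random-hexamer level in most samples. AT1G14420, named AT59, was far lower, at 49.3 to 336 CPM in wild type and 146 to 221 CPM in paps1-1 with random hexamers, and at 62.0 to 229 CPM and 1.76 to 129.8 CPM with oligo(dT).

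AT5G15110, the close relative of AT3G01270, stood at 81.4, 33.1, 0 and 138 CPM in wild type and 145, 139, 81.6 and 148 CPM in paps1-1 with random hexamers. With oligo(dT) it had 4 counts over the wild-type libraries, at 1.02, 1.00, 0 and 0 CPM, and 391 counts over 3 of the 4 paps1-1 libraries, at 38.3, 36.4, 163 and 0 CPM. The genotypes overlapped in both primings, through wild-type replicate 4 with random hexamers and paps1-1 replicate 4 with oligo(dT), and the oligo(dT) difference could not be tested because the gene did not pass the filter there.

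**Figure D1:**
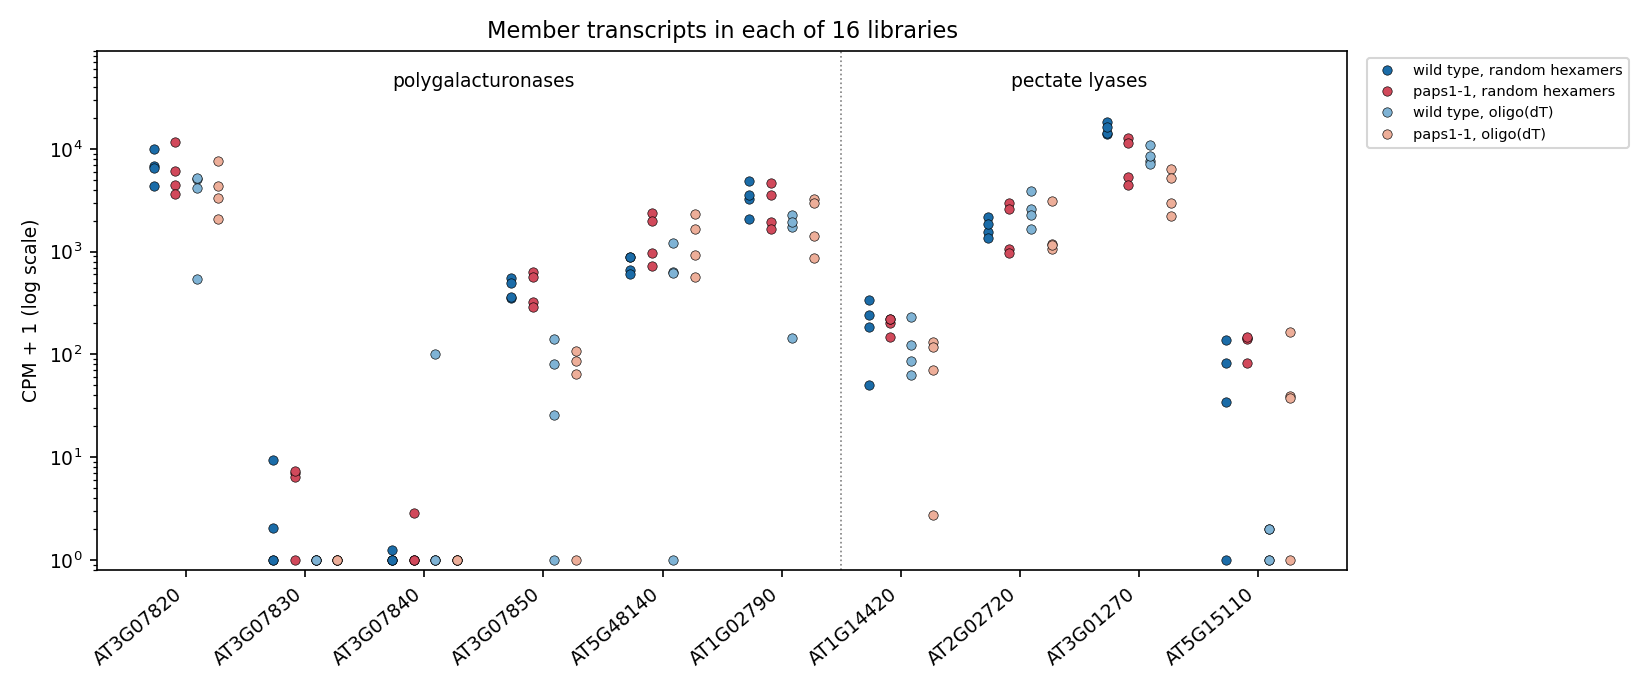
Level of each of the 10 genes in each of the 16 libraries, as CPM of gene counts plus 1 on a log axis, with 1 point per library; a point at 1 is a library with no count. AT3G01270 lies between 2219.8 and 18410.1 CPM in all libraries, AT3G07820 and AT1G02790 drop to 543 and 143 CPM in wild-type oligo(dT) replicate 3, and AT3G07830 stays at or below 8.33 CPM.

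Scaled to transcript length, the members spanned the range from the top of the transcriptome to its floor. In wild type with random hexamers AT3G01270 averaged 8176 ± 1125 CPM per kilobase (SD, n = 4), rank 6 among 32827 genes with a transcript length, and AT3G07820 averaged 4590 ± 1557, rank 18. PGA4 followed at 2029 ± 666 (rank 37), AT2G02720 at 957 ± 199 (rank 83), AT5G48140 at 490.2 ± 95.1 (rank 154) and AT3G07850 at 256 ± 58.0 (rank 295). AT1G14420 averaged 101 ± 60.1, AT5G15110 32.9 ± 31.3, AT3G07830 1.54 ± 2.64 and AT3G07840 0.0487 ± 0.0974 CPM per kilobase. In this order the ranges of AT3G01270 and AT3G07820 did not meet, those of AT3G07820 and PGA4 met in a single value of replicates (2857 and 2858), and those from PGA4 down to AT1G14420 did not meet. From AT1G14420 downward each gene overlapped the next. In paps1-1 AT3G01270 averaged 4417 ± 2188 and AT3G07820 4287 ± 2422 CPM per kilobase, ranks 10 and 11, with ranges that overlapped.

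Between genotypes with random hexamers, no member passed the threshold of 0.05 on the adjusted p of edgeR's quasi-likelihood test, which was run on all 12595 genes that passed the filter and called 9 of them (0.0715%, with 0.0159% higher and 0.0556% lower in paps1-1). Of the 9 members tested, 0 had an unadjusted p under 0.05, beside 2.33% of genes, and the DESeq2 Wald test called 0, beside 0.299% of genes. The members' log2 fold changes, paps1-1 against wild type, were positive for 4 and negative for 5, with a median of -0.03, beside 0.38 over all genes tested (0.53 with DESeq2 size factors). For AT5G48140 it was 1.03 ± 0.72 (SE) and for AT3G01270 -0.88 ± 0.98 (edgeR adjusted p = 1.00 for both). Their approximate 95% intervals, -0.39 to 2.45 and -2.80 to 1.05, both hold 0 and a change of more than 1 log2 unit. The remaining values lay between -0.25 ± 0.81 (PGA4) and 0.92 ± 0.85 (AT5G15110), with AT3G07820 at -0.14 ± 0.91, AT3G07830 at 0.83 ± 1.63, AT3G07850 at -0.03 ± 0.66, AT1G14420 at -0.18 ± 0.65 and AT2G02720 at 0.14 ± 0.76. In CPM, AT3G01270 was the only one of the 9 whose groups did not overlap, lower in paps1-1 as were 1.52% of all genes tested, and 0 members lay apart on the higher side, where 4.6% of genes did.

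The make-up of the libraries differed between samples in ways that bear on these values. The 16 markers of the pollen vegetative cell and tube took 7.26%, 2.94%, 2.72% and 6.77% of gene counts in the paps1-1 random-hexamer libraries and 7.60%, 8.07%, 4.23% and 4.76% in the wild-type ones. At least 15 of the 16 had counts in each of these 8 libraries. The 8 pistil markers took 0.0426% of gene counts in replicate 2 of paps1-1, against 0.00307% to 0.0121% elsewhere, with CRC at 0 in all 16 libraries, and the 9 photosynthesis markers took 0.421% in replicate 3 of that genotype, against 0.0169% to 0.171% elsewhere. Markers of sperm cells took at most 0.00577% with random hexamers and 0.0179% with oligo(dT), with GEX2 at 0 in all 16 libraries. Without paps1-1 replicates 2 and 3, log2 fold changes turned to 0.51 for AT3G07820, 0.58 for AT3G07850, 0.41 for PGA4 and 0.22 for AT1G14420, that of AT3G01270 shrank to -0.20 and that of AT5G48140 was 1.71, and none passed (adjusted p = 1.00). The part of library composition in the genotype values was not tested, and in bulk RNA fewer tubes and less transcript per tube cannot be told apart.

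In the oligo(dT) libraries 7 members passed the filter and 0 of them passed the threshold, where edgeR called 1 of 5101 genes (0.0196%). Again 0 members had an unadjusted p under 0.05 (1.69% of genes), and DESeq2 called 0 (1.28% of genes). AT5G48140 had a log2 fold change of 1.33 ± 1.09 (SE), PGA4 of 0.60 ± 0.97, AT3G07820 of 0.39 ± 0.86 and AT3G07850 of 0.33 ± 2.08. The pectate lyases were at -0.79 ± 0.82 for AT3G01270, -0.27 ± 0.96 for AT2G02720 and -0.27 ± 1.85 for AT1G14420. Without paps1-1 replicates 2 and 3 AT3G01270 was at -0.11 and AT5G48140 at 2.05. In the fit of all 8 libraries each member had an edgeR adjusted p of 1.00, and the median of the 7 was 0.33 beside 0.43 over all genes tested (0.81 with DESeq2 size factors). AT3G01270 was again the member whose CPM did not overlap between genotypes, lower in paps1-1 as were 0.804% of genes tested, and 0 members lay apart on the higher side, beside 2.41% of genes. In these libraries pollen markers took 3.15%, 1.32%, 1.06% and 2.37% of gene counts in paps1-1 and 2.96%, 2.69%, 0.676% and 2.17% in wild type. Pistil markers took 0.0130% to 0.0554% in paps1-1 and 0% to 0.00804% in wild type, and photosynthesis markers 0.0114% to 0.651% and 0.00429% to 0.190%; their part in the values was not tested.

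**Figure D2:**
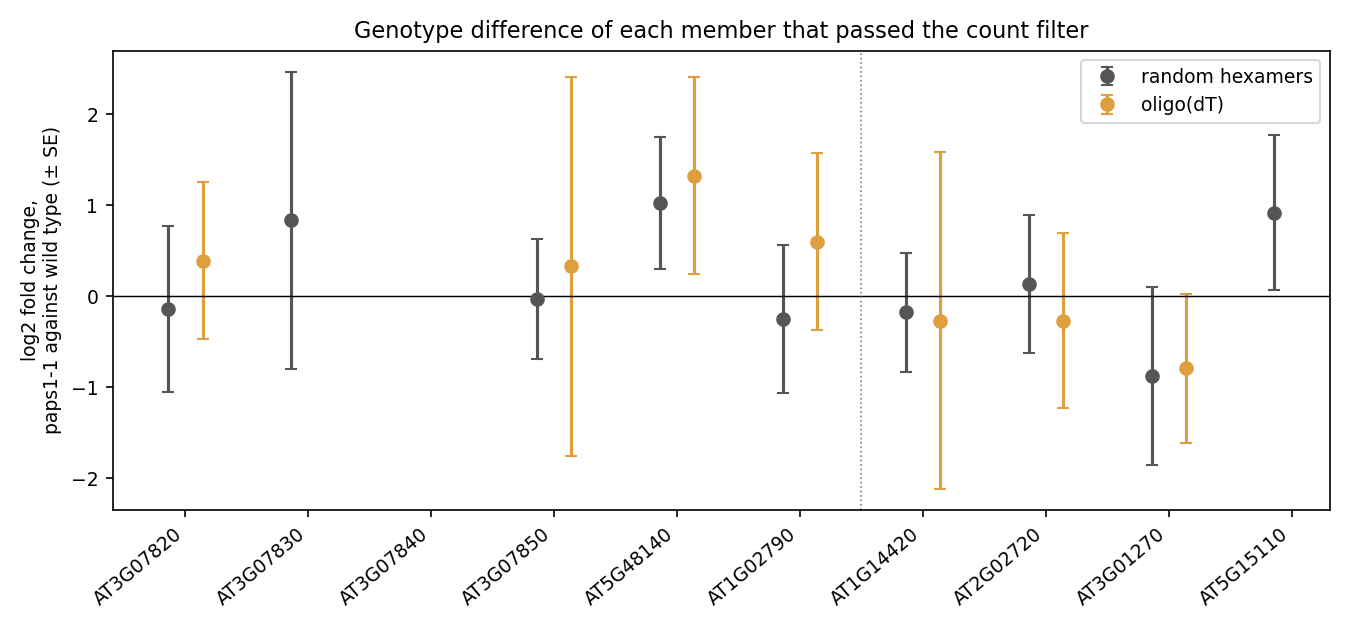
Log2 fold change of each member, paps1-1 against wild type, with its standard error from edgeR, in random-hexamer (grey) and oligo(dT) (orange) libraries; members with no point did not pass the filter on low counts. AT5G48140 has the highest value of the members with both points and AT3G01270 the lowest, and no member passed the threshold.

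Since the members share the libraries, their ratios to each other within a library do not depend on library scaling. AT5G48140 gave 4.75, 4.79, 4.26 and 5.41 counts per 100 counts of AT3G01270 in wild-type replicates 1 to 4 with random hexamers, and 18.5, 13.4, 21.8 and 17.5 in paps1-1. The means were 4.81 ± 0.471 and 17.8 ± 3.45 (SD, n = 4), and the groups lay far apart, paps1-1 replicates 2 and 3 included. With oligo(dT) the ratio was 5.80, 15.8, 0 and 7.37 in wild type and 36.6, 31.3, 25.6 and 31.8 in paps1-1, with means of 7.25 ± 6.53 and 31.4 ± 4.52, and again no overlap, with or without wild-type replicate 3. This pair was singled out after its values were seen, so no test is given. Among the 7 members with counts in all 8 random-hexamer libraries and a mean of at least 30 CPM, 7 of 21 pairs had ratios that did not overlap between genotypes, beside 5.78% of 5646480 pairs of genes chosen the same way. All 7 pairs involve AT5G48140 or AT3G01270: AT5G48140 with AT3G07820, PGA4, AT2G02720 and AT3G01270, and AT3G01270 also with AT3G07850, PGA4 and AT2G02720. The pairs are therefore not independent of each other. The share over all pairs of genes was not matched to the abundance of the members, most of which stood far above 30 CPM.

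Within the families the same shift shows as a share. AT3G01270 made up 87.6% to 91.0% of the counts of the 4 pectate lyases in wild type and 78.9% to 79.6% in paps1-1 with random hexamers, and AT2G02720 8.69% to 10.4% and 15.8% to 18.3%. AT5G48140 made up 5.38% to 7.84% of polygalacturonase counts in wild type and 9.70% to 16.2% in paps1-1. None of these ranges overlapped, but how often shares of other gene families lie apart in this way was not computed. Shares within a family add up to a fixed total, so those of AT2G02720 and AT3G01270 are not separate observations. In CPM the random-hexamer values of AT2G02720 overlapped between genotypes. With oligo(dT) AT5G48140 made up 0% to 14.5% and 16.1% to 18.4%, while AT3G01270 made up 63.3% to 83.0% and 62.3% to 81.9%, ranges that overlapped. AT3G07820 took 50.8% to 67.7% of polygalacturonase counts in wild type and 49.7% to 60.7% in paps1-1 with random hexamers.

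Set against the 16 pollen markers, AT5G48140 was the member whose paps1-1 libraries all stood above the wild-type ones. It gave 11.5, 8.19, 14.3 and 18.7 counts per 1000 marker counts in wild type and 32.7, 24.3, 35.8 and 29.1 in paps1-1 with random hexamers. With oligo(dT) it gave 21.3, 44.6, 0 and 28.7 in wild type and 73.9, 70.1, 53.4 and 70.1 in paps1-1. The groups did not overlap in either priming; on this measure 6.38% and 2.55% of genes tested were apart in the same direction. AT3G01270 gave 202, 224, 208 and 220 counts per 1000 marker counts in paps1-1 and 368, 282, 1049 and 390 in wild type with oligo(dT), apart as were 0.823% of genes, but with random hexamers the groups overlapped, at 164 to 181 in paps1-1 and 171 to 345 in wild type. In edgeR fits scaled to the summed marker counts, an alternative added after seeing the data, AT3G01270 had a log2 fold change of -1.29 ± 0.32 with oligo(dT) (adjusted p = 0.0372), which was -0.70 ± 0.20 without wild-type RNA 3 (adjusted p = 0.105), and -0.67 ± 0.19 with random hexamers (adjusted p = 0.269). AT5G48140 had 1.21 ± 0.37 with random hexamers (adjusted p = 0.369) and 1.48 ± 1.03 with oligo(dT) (adjusted p = 0.918). With random hexamers 8 of the 9 members tested were positive in these fits, AT3G07830 and AT5G15110 above AT5G48140. The median of all genes was 1.35 with random hexamers, above the value of AT5G48140, and 0.92 with oligo(dT).

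**Figure D3:**
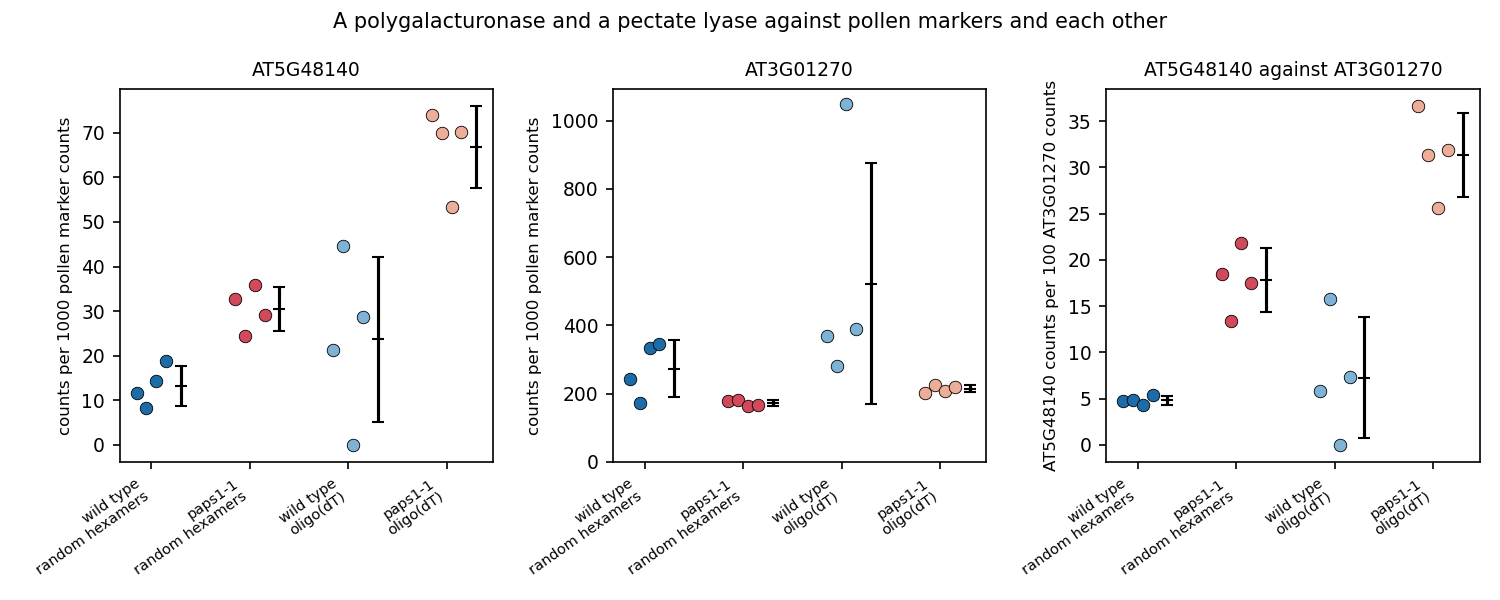
Counts of AT5G48140 and of AT3G01270 per 1000 counts of 16 pollen markers, and counts of AT5G48140 per 100 counts of AT3G01270, on linear axes with 1 point per library and bars for the mean ± SD of 4 libraries. The ratio of both genes is 13.4 to 21.8 in paps1-1 and 4.26 to 5.41 in wild type with random hexamers.

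As whole families, the polygalacturonases held the same share of gene counts in both genotypes with random hexamers to within the spread, at 1.15% ± 0.336 in wild type and 1.14% ± 0.587 (SD, n = 4) in paps1-1. The pectate lyases held 2.09%, 1.55%, 1.55% and 1.88% in wild type and 1.61%, 0.675%, 0.565% and 1.42% in paps1-1, means of 1.77% ± 0.263 and 1.07% ± 0.526, with paps1-1 replicate 1 inside the wild-type range. With oligo(dT) the polygalacturonases held 0.598% ± 0.351 in wild type and 0.791% ± 0.429 in paps1-1. The pectate lyases held 1.12% ± 0.167 and 0.595% ± 0.273, without overlap. How often other gene families lie apart in this way was not computed.

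Oligo(dT) priming gave lower values than random hexamers for most members. In wild type, AT3G01270 (log2 fold change -1.90 ± 0.51, SE, edgeR adjusted p = 0.0308) and AT3G07820 (-2.11 ± 0.61, adjusted p = 0.0497) passed the threshold, both lower with oligo(dT), among 157 of 14190 genes called lower (1.11%, beside 0.0423% called higher). All 9 members tested had negative values in both genotypes, with medians of -2.11 in wild type and -1.64 in paps1-1. These values rest on TMM scaling, and the CPM differences within RNA samples given below were smaller for AT3G01270. The 9 include AT3G07830, which had no count with oligo(dT), and AT2G02720, whose CPM was lower with oligo(dT) in only 2 of 8 RNA samples. AT2G02720 turned to 0.64 in wild type with DESeq2 size factors. Of all 14190 genes tested, 11790 were negative in wild type and 11744 in paps1-1. The median over all genes was lower still, -3.92 in wild type and -2.53 in paps1-1, and DESeq2 size factors moved it to -3.16 and -2.08. Relative to the median gene, both genes called lower therefore stood higher with oligo(dT). However, the wild-type oligo(dT) libraries detected only 2266 to 7750 genes each, so many of the 14190 genes tested had no count in them. The median takes in such genes, whose fold has no measured size, and their part in it was not tested.

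Within single RNA samples the difference of AT3G01270 was small and even. Its log2 CPM with oligo(dT) was lower than with random hexamers by -0.76, -0.86, -1.0 and -0.96 in wild type and by -1.01, -0.86, -1.01 and -1.11 in paps1-1. AT3G07820 differed by -0.97, -0.38, -2.99 and -0.66 in wild type and by -0.61, -0.41, -0.82 and -0.47 in paps1-1, with replicate 3 of wild type as the extreme. AT3G07850 and PGA4 were also lower with oligo(dT) in 8 of 8 samples, as were 6.47% of all genes tested. Within wild type alone these 4 members were lower in 4 of 4 samples, as were 12% of genes, and within paps1-1 alone they and AT1G14420 were, as were 25.3%. These shares were not matched to the abundance of the members, and a gene without counts in both libraries of a sample cannot be lower there. AT1G14420 was lower in 7, AT5G48140 and AT5G15110 in 6 and AT2G02720 in 2 of the 8.

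The other wild-type values did not pass. They were -4.41 ± 1.43 (SE) for AT3G07850 (edgeR adjusted p = 0.0970), -7.27 ± 2.57 for AT5G15110 (adjusted p = 0.134), -2.33 ± 0.77 for PGA4 (adjusted p = 0.103), -1.74 ± 0.98 for AT5G48140, -1.63 ± 1.45 for AT1G14420 and -0.46 ± 0.73 for AT2G02720. No fold is given for AT3G07830, which had no count with oligo(dT). In paps1-1 no member passed, where edgeR called 0.282% of genes (0.254% lower and 0.0282% higher); 3 members had an unadjusted p under 0.05, beside 11.1% of genes, and DESeq2 called 1, AT3G07850, beside 10.6% of genes with an adjusted p. There AT3G07850 was at -4.05 ± 1.42 (adjusted p = 0.304), AT3G01270 at -1.64 ± 0.51 (adjusted p = 0.181), AT3G07820 at -1.22 ± 0.57 (adjusted p = 0.413), AT5G15110 at -2.42 ± 1.97, AT1G14420 at -2.25 ± 1.54, PGA4 at -1.18 ± 0.69, AT5G48140 at -0.82 ± 0.88 and AT2G02720 at -0.81 ± 0.78.

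Both wild-type calls depended on which samples were fitted. AT3G07820 no longer passed without paps1-1 replicate 2, 3 or 4 (adjusted p = 0.106, 0.0924 and 0.0636) or wild-type replicate 1, 2 or 4 (0.0711, 0.358 and 0.250), and AT3G01270 without paps1-1 replicate 2 or 3 (0.0716 and 0.0670) or wild-type replicate 2 or 4 (0.553 and 0.343). Without the shallow wild-type replicate 3 they were at -1.36 (adjusted p = 2.23e-06) and -1.55 (adjusted p = 9.34e-14), and PGA4 also passed in wild type (-1.43, adjusted p = 0.00596), where 1.49% of genes were called. In that same fit 1.32% of genes and 4 members passed in paps1-1: AT3G01270 (-1.68, adjusted p = 1.47e-21), AT3G07820 (-1.26, adjusted p = 2.17e-07), AT3G07850 (-4.09, adjusted p = 0.00597) and PGA4 (-1.22, adjusted p = 0.00731). AT3G01270 also passed in paps1-1 without wild-type replicate 1 (-1.66, adjusted p = 0.0102). The DESeq2 Wald test called AT3G07850 and AT5G15110 in wild type and neither AT3G07820 nor AT3G01270, and it called 19.1% of all genes with an adjusted p there.

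**Figure D4:**
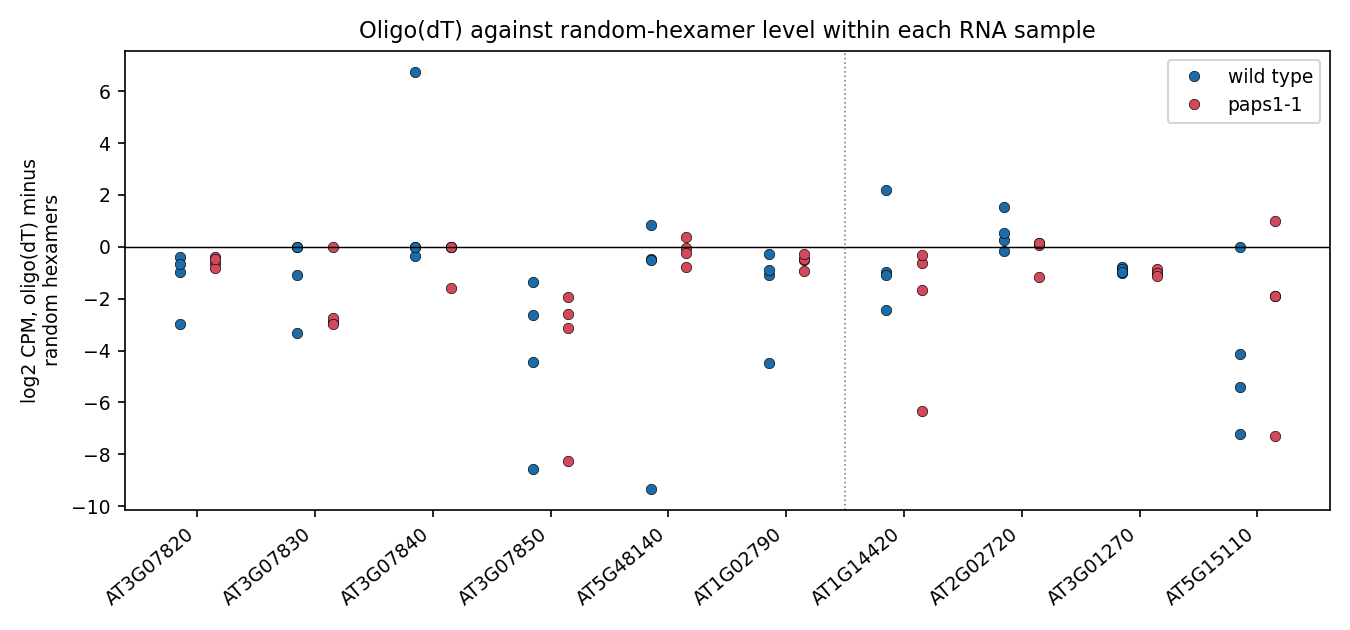
Difference in log2 CPM between the oligo(dT) and the random-hexamer library of the same RNA sample for each member, with 1 point per RNA sample, 4 of each genotype; 0 means equal levels. AT3G01270 lies between -0.76 and -1.11 in all 8 samples, while the lowest points of AT3G07820, AT3G07850, AT5G48140 and AT1G02790 are wild-type replicate 3.

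A difference between genotypes in the effect of priming was tested as an interaction. No member passed, and edgeR called 0 of 14190 genes (0%), with 231 (1.63%) at an unadjusted p under 0.05 and 39 (0.275%) called by DESeq2; 0 members were in either set. The difference of log2 ratios, paps1-1 minus wild type, was 0.89 ± 0.83 (SE) for AT3G07820, 1.15 ± 1.03 for PGA4, 0.92 ± 1.32 for AT5G48140 and 0.36 ± 2.02 for AT3G07850. It was 0.25 ± 0.70 for AT3G01270, -0.35 ± 1.06 for AT2G02720, -0.63 ± 2.1 for AT1G14420 and 4.85 ± 3.10 for AT5G15110 (edgeR adjusted p = 1.00 for all). Over all genes the median was 0.97.

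AT2G02720 needs the strand of the reads. Its last exon overlaps AT2G02730, a protein-coding gene on the opposite strand, over 481 bases, and AT2G04285, an annotated noncoding RNA that is not among the genes counted here, over 790.0 bases of that strand. Counts without regard to strand dropped 81.3%, 89.2%, 92.2% and 74.0% of the strand-specific AT2G02720 counts with oligo(dT) in paps1-1, and 88.4%, 98.7%, 99.6% and 97.9% in wild type. With random hexamers the loss was 3.65% to 8.12% in paps1-1 and 4.28% to 23.0% in wild type. In each of the 8 oligo(dT) libraries the number dropped equalled the count of AT2G02730 on its opposite strand, for example 7296 of 8969 counts in paps1-1 replicate 1, so the oligo(dT) counts of this gene lie mostly in the shared stretch at its 3′ end. AT2G02730 itself stood at 0 to 96.1 CPM. Without regard to strand AT2G02720 would have a priming log2 fold change in wild type of -5.86 (edgeR adjusted p = 8.42e-05), against -0.46 on its own strand. For the other members with over 100 counts, counts without regard to strand were 100% to 102.7% of those on the strand of the gene.

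**Figure D5:**
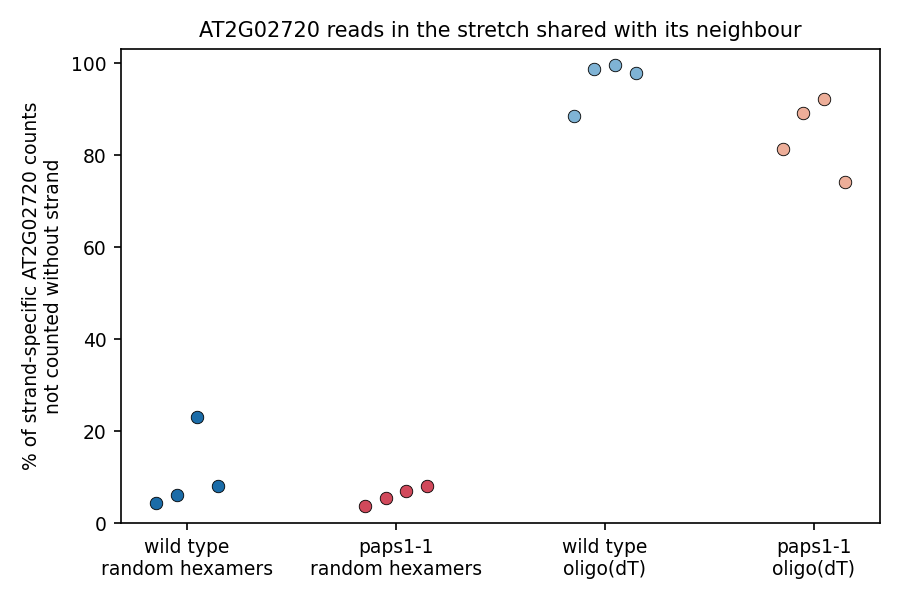
Share of AT2G02720 counts on its own strand that are absent from counts taken without regard to strand, in percent, with 1 point per library. The share is 74.0% to 99.6% in the 8 oligo(dT) libraries and 3.65% to 23.0% in the 8 random-hexamer libraries.

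The rest of the pectin pathway was described by lists. Of 11 pollen pectin methylesterases, which prepare the substrate of both families, 0 passed between genotypes with random hexamers; the 3 of smallest p were AT5G07420 at 2.77 ± 1.04 (SE), AT5G07410 at 1.59 ± 0.74 and VGDH2 (AT3G62170) at 1.36 ± 0.74 on the log2 scale (edgeR adjusted p = 1.00). Their share of gene counts was 3.35% ± 0.765 in wild type and 3.17% ± 1.5 in paps1-1 with random hexamers, and 9.37% ± 2.83 and 4.93% ± 2.72 with oligo(dT) (SD, n = 4). In the wild-type priming comparison VGD1 (AT2G47040) rose with oligo(dT) by 1.38 ± 0.38 (adjusted p = 0.0377), while AT5G07430 (-3.86 ± 0.81, adjusted p = 0.00132) and AT3G05610 (-2.90 ± 0.68, adjusted p = 0.00668) fell. VGD1 was the only positive value among the 11 methylesterases, and 10 were negative in this fit. All 9 members tested were negative in the same fit, AT3G07830 without a count with oligo(dT), as were 11790 of 14190 genes. In paps1-1 edgeR called 2 methylesterases lower and 0 higher between primings.

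Of 3 pectin methylesterase inhibitors tested out of 5, none passed between genotypes or primings; with random hexamers AT1G10770 was at 0.37 ± 0.74, PMEI5 at 0.16 ± 0.95 and PMEI1 at 0.05 ± 0.71 on the log2 scale, paps1-1 against wild type. Of 15 galacturonosyltransferases, the enzymes that build homogalacturonan, 12 were tested between genotypes with random hexamers and 13 between primings, and 0 passed; the smallest p values were those of GAUT4 between genotypes (1.13 ± 0.89) and of GAUT1 between primings in wild type, which averaged 47.0 ± 36.9 CPM with random hexamers and had no count with oligo(dT). All 4 pectin methyltransferases were tested and 0 passed, with QUA3 at 1.74 ± 1.54 between genotypes. PGIP1, an inhibitor of fungal polygalacturonases, was at 2.44 ± 0.93 between genotypes (edgeR adjusted p = 1.00), with 114 ± 105 CPM in paps1-1 random-hexamer libraries and 16.6 ± 18.5 CPM in those of wild type. PGIP2 did not pass the filter.

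Of 7 polygalacturonases of other tissues, which include QRT2 and QRT3 of pollen tetrad separation and ADPG1 of dehiscence, 1 passed the filter, AT1G48100, with 13.2 ± 15.6 CPM in paps1-1 random-hexamer libraries and 18.4 ± 31.3 CPM in those of wild type. With oligo(dT) AT1G48100 had 10.7 to 260 CPM in the 4 paps1-1 libraries, with a mean of 96.9 ± 112 CPM, and no count in the 4 wild-type ones (edgeR adjusted p = 1.00). QRT2 had no count in any library. A wider list held the 104 genes outside the members that are annotated to either family or only as pectin lyase-like proteins. It takes in these 7 polygalacturonases, AT3G14040 and some of the pectin methylesterases, so its counts overlap those of the lists above. Between genotypes with random hexamers 39 of the 104 were tested and 0 passed. Between primings in wild type 43 were tested and 1 passed, AT5G07430, the methylesterase already named above. In paps1-1 1 of 43 passed, also lower.

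Among the marker lists, 0 genes passed between genotypes in either priming. Of the 16 pollen markers 15 had negative values with random hexamers (median -0.49) and 4 of 15 with oligo(dT) (median 0.12). In the wild-type priming comparison 5 of 16 passed, all lower with oligo(dT), led by AT3G19020 (LRX8) with -3.86 ± 0.53 (edgeR adjusted p = 1.28e-09), and in paps1-1 3 of 16 passed, all lower. Marker-scaled values were therefore compared only within a priming. No pistil, photosynthesis or sperm marker passed between primings.

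The genes whose pattern over the 8 random-hexamer libraries was most like the mean pattern of 8 members (those whose log2 CPM averaged 5 or more) were FAH1 (AT2G34770), GRF1 (AT4G09000), AT1G04470, AT5G16500 and PUB23 (AT2G35930). Their root-mean-square differences from that mean, each profile centred, were 0.111, 0.209, 0.218, 0.219 and 0.227 log2 units, beside a median of 1.08 over 3305 genes. The members themselves lay between 0.353 (AT2G02720) and 1.90 (AT5G15110) from their own mean, with AT3G01270 at 0.736 and AT5G48140 at 0.476. The mean pattern was highest in paps1-1 replicate 1 (0.75) and lowest in wild-type replicate 3 (-1.14), so this likeness takes in differences between libraries as well as genotypes.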

How the data were processed

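RNA of pollen tubes was measured as read counts per gene in 16 libraries, 4 in each of 4 groups of genotype and priming. Per the submitters' processing notes, the authors used STAR and the genome TAIR10. The deposited tables hold raw counts for each gene without regard to strand, on the strand of the gene and on the opposite strand. Not given in the sources used here: the STAR version, annotation release, read trimming and duplicate removal. The same-strand values were used, since those of the opposite strand were 2.44% to 34.0% of both in each library. The 4 rows that name no gene held 55.1% to 99.6% of a library's reads and entered neither library sizes nor tests. CPM is a count scaled to the gene counts of its library. Within groups, all 24 pairs of libraries differed by more than sampling noise (lowest ratio of chi-square to its degrees of freedom 19.5).

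The test was the quasi-likelihood test of edgeR 4.0.16 (R 4.3.3). Genes were first filtered by filterByExpr at a count of 10 and a total of 15, libraries scaled by TMM, and p-values adjusted by Benjamini-Hochberg over all genes tested, with 0.05 as threshold. Genotypes were compared within each priming on 8 libraries. For priming effects and their difference between genotypes, all 16 libraries were fitted together and the RNA sample was a block, because the labels say that each RNA was split. The standard error of a log2 fold change was its ratio to the root of the F statistic, and a prior count of 2 went into log2 CPM. Alternatives were DESeq2 1.42.0 size factors, its Wald test, no filter, counts without regard to strand, replicate blocks, leaving out each RNA sample, leaving out paps1-1 replicates 2 and 3, and scaling by pollen markers with and without wild-type RNA 3. The last 3 were chosen after seeing the data. The scripts were tested on simulated counts.

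Names, lengths and sequences came from RefSeq for TAIR10.1 by locus, which matched 32835 of 33323 identifiers. The count tables hold no coordinates, so coordinates given are those of TAIR10.1. Named in every comparison are all 10 members, with up to 3 genes of smallest p from each other list (in the random-hexamer genotype and wild-type priming comparisons) and the 5 genes most like the members. Members and lists were chosen with earlier results of these data known.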

Additional observations from a re-analysis of the deposited data

Results flagged for a closer look

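Groups of 4 libraries were examined for 10 members (40 groups, 3 of them without a count) and for the share of each family (8 groups). In 7 groups, all of single members, the highest or lowest value lay apart from the other 3 by a share of the group's range above Dixon's critical value of 0.829. That value would flag about 1 in 20 groups of 4 normally distributed values. CPM values that include zeros are not of that kind: a group with counts in a single library gives 1 by construction, and one without a count cannot be flagged. The number of flags therefore cannot be set against chance. AT2G02720 in paps1-1 oligo(dT) libraries gave 0.943, with replicate 1 at 3096 CPM above the others. AT5G15110 in paps1-1 random-hexamer libraries gave 0.864, with replicate 3 at 81.6 CPM below the others. AT3G07830 gave 0.851 in paps1-1 and 0.876 in wild-type random-hexamer libraries, where replicate 3 of paps1-1 had no count and replicate 2 of wild type stood at 8.33 CPM. AT3G07840 gave 1 in paps1-1 random-hexamer, wild-type random-hexamer and wild-type oligo(dT) libraries, since a single library of each had counts: replicate 1 at 1.89 CPM, replicate 2 at 0.253 CPM and replicate 3 at 99.99 CPM. That last value is 7 counts in the library with the fewest gene counts, 70006.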

How the results depend on the processing

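The directions of AT5G48140 (higher in paps1-1) and AT3G01270 (lower) held in both primings under every alternative run: AT5G48140 was at 0.51 or more and AT3G01270 at -0.11 or less on the log2 scale. The value nearest 0 for AT3G01270 was that without paps1-1 replicates 2 and 3, -0.20 with random hexamers and -0.11 with oligo(dT), and for AT5G48140 that without paps1-1 replicate 1. Without any 1 replicate AT5G48140 lay between 0.51 and 1.43 with random hexamers and 0.61 and 1.86 with oligo(dT), and AT3G01270 between -1.34 and -0.45 and between -1.36 and -0.41. For small values the sign was not fixed. With random hexamers AT3G07850 turned to 0.0463 with DESeq2 size factors and in the Wald test. Scaled by pollen markers, AT3G07820, AT3G07850, PGA4 and AT1G14420 turned to 0.23, 0.39, 0.0149 and 0.47, without wild-type RNA 3 to 0.18, 0.46, 0.15 and 0.18, and without paps1-1 replicates 2 and 3 under the usual scaling to 0.51, 0.58, 0.41 and 0.22. With oligo(dT) AT1G14420 and AT2G02720 turned to 0.59 and 0.0186 with marker scaling without wild-type RNA 3 (AT3G07850 to -0.12), and to 0.0718 and 0.44 without paps1-1 replicates 2 and 3. Without regard to strand AT2G02720 turned to 1.58 between genotypes with oligo(dT) and to 2.45 in the interaction. In the wild-type priming comparison it turned to 0.64 with DESeq2 size factors and the Wald test. The interaction of AT3G01270 turned to -0.24 and that of AT3G07850 to -0.0347 with these size factors and to -0.24 and -0.0433 in the Wald test. The causes of these changes were not tested.

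Leaving out each replicate in turn gave, between genotypes with random hexamers, -0.87 to 0.47 for AT3G07820, -0.43 to 0.44 for AT3G07850, -0.75 to 0.38 for PGA4, -0.53 to 0.26 for AT1G14420 and -0.36 to 0.62 for AT2G02720. With oligo(dT) it gave -0.36 to 0.76 for AT3G07820, -0.26 to 1.13 for AT3G07850, -0.96 to 0.23 for AT1G14420 and -1.14 to 0.10 for AT2G02720. In the interaction it gave -0.67 to 1.39 for AT3G07850, -0.12 to 1.66 for AT5G48140, -1.55 to 0.33 for AT1G14420, -0.77 to 0.17 for AT2G02720 and -0.13 to 0.52 for AT3G01270, and -0.50 to 0.26 for AT2G02720 between primings in wild type. Members called ranged from 0 to 3 between primings in wild type and from 0 to 4 in paps1-1, and stayed at 0 elsewhere. Genes called over the whole table ranged from 4 to 11 (genotypes, random hexamers), 0 to 3 (genotypes, oligo(dT)), 32 to 242 and 16 to 215 (primings, wild type and paps1-1) and 0 to 2 (interaction).

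The 2 members called between primings in wild type became 0 with no filter, with no replicate block and without paps1-1 replicates 2 and 3, and 1, AT2G02720, without regard to strand. The adjusted p of AT3G07820 and AT3G01270 was 0.114 and 0.0753 with no filter, 0.115 and 0.0784 without regard to strand, 0.190 and 0.133 with no replicate block, 0.226 and 0.375 in the DESeq2 Wald test, and 0.372 and 0.340 without paps1-1 replicates 2 and 3; with DESeq2 size factors both passed (0.0193 and 0.0354). In paps1-1 1 member was called with DESeq2 size factors (AT3G01270, adjusted p = 0.000573) and 1 in the Wald test (AT3G07850), and 1 between genotypes with oligo(dT) under marker scaling. Genes called over the whole table were 9 and 1 between genotypes (random hexamers, oligo(dT)), 163 and 40 between primings (wild type, paps1-1) and 0 in the interaction. The Wald test called 37, 54, 1821, 982 and 39, and DESeq2 size factors 7 between genotypes with oligo(dT), 105 and 61 between primings and 4 in the interaction. No filter gave 47 and 2 between genotypes and 87 between primings in wild type, counts without regard to strand 2 between genotypes with oligo(dT), and marker scaling 11 there, and 3 and 28 without wild-type RNA 3. Without paps1-1 replicates 2 and 3, edgeR called 0 genes between genotypes with oligo(dT), with 291 at an unadjusted p under 0.05, and 52 and 2 between primings.

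The labels do not say that shared replicate numbers pair the genotypes, and the values were mixed, so the numbers were not taken as pairs: deviations of same-numbered samples correlated across genes with r = 0.296, 0.246, -0.0354 and -0.0741 with random hexamers and 0.205, 0.0510, 0.0267 and -0.0742 with oligo(dT), and 2 of 4 correlated best with their own number in each priming. The replicate number as a block gave 15 and 4 genes called between genotypes, no member among them, and turned AT1G14420 to 0.0631 and AT2G02720 to -0.18 with random hexamers. With no replicate block for the RNA sample, 16 genes were called between primings in paps1-1, and the interaction of AT1G14420 was 0.19.

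Depth limits AT3G07830, AT3G07840 and AT5G15110, which rest on few counts, and every value of wild-type oligo(dT) replicate 3, where 1 count is worth more than 10 CPM. The random-hexamer library of that RNA detected 6043 genes. It held AT5G15110 at 0 CPM and AT1G14420 at 49.3 CPM, the lowest values of its group. Scaling moved the median of all genes between primings by 0.75 (wild type) and 0.45 (paps1-1) on the log2 scale, so absolute directions there depend on it.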
